A study of Mus musculus with 44 samples.

Results

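Gene expression in the hypothalamus was set against that in the remaining brain of mice that had been given ACTH and whose drive for salt was then gratified. ACTH is the pituitary hormone that drives the adrenal cortex to make corticosteroids. The samples were chosen by their titles: 6 arrays labelled Hypothalamus ACTH Treated Gratified and 5 labelled Whole Brain ACTH Treated Gratified, 11 of the 44 arrays in the series. All mice were adult males of strain C57/Bl6, and the brain samples were labelled Whole Brain minus Hypothalamus, called rest of brain here. Ungratified mice labelled ACTH (5 hypothalamus and 4 rest of brain arrays) and mice with treatment None, called untreated controls (4 and 4 arrays), served for comparison. The labels do not give the dose or duration of ACTH, how the mice were gratified, or which arrays came from the same animal. The sample descriptions carry numbers whose meaning is not given, and those of the controls belong to other series than those of the ACTH and gratified ACTH arrays, so that treatment and series of numbers cannot be told apart in comparisons with controls. Within the controls, hypothalamus and rest-of-brain arrays also carry different kinds of number, so tissue and kind of number cannot be told apart there. Each array compared Cy5-labelled tissue RNA with Cy3-labelled reference RNA pooled from mouse cell lines, and each value is the log2 ratio of tissue over reference for 1 of 9554 features.

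The hypothalamus regulates body fluids, feeding, temperature, sleep and pituitary secretion through small groups of neurons that each make a characteristic peptide. Magnocellular neurons make oxytocin and vasopressin, lateral hypothalamic neurons make hypocretin (orexin) or melanin-concentrating hormone, and arcuate neurons make proopiomelanocortin or agouti-related peptide. The remaining brain is mostly cortex, hippocampus, striatum, thalamus, midbrain and cerebellum. Glutamatergic neurons of the cortex and hippocampus are marked by transcription factors such as Neurod2, Neurod6, Tbr1 and Fezf2.

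The promoters of the 4 peptide genes that separated the tissues most widely, and of the cortical transcription factor gene Neurod2, are shown as examples of genes that differed between the tissues. They are RefSeq sequences of GRCm38.p6, from 250 bases before to 50 bases after the annotated start, written 5′ to 3′ on the gene's strand. Capitals mark TATAAA on the gene's strand and the nuclear receptor half-site GGTCA on either strand (written TGACC on the opposite one).
Oxt, chr2:130575919-130576218, plus strand: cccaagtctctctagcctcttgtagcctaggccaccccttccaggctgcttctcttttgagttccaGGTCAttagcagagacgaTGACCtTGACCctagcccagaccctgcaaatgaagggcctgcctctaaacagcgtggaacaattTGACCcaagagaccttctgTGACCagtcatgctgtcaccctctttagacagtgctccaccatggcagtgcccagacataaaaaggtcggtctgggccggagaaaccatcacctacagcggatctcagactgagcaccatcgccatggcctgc
Avp, chr2:130582539-130582838, minus strand: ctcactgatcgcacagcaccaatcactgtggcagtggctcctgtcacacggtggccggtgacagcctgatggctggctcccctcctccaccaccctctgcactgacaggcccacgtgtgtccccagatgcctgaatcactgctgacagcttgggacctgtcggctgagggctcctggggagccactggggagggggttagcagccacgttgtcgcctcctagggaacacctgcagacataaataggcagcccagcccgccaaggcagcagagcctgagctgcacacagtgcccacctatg
Hcrt, chr11:100762882-100763181, minus strand: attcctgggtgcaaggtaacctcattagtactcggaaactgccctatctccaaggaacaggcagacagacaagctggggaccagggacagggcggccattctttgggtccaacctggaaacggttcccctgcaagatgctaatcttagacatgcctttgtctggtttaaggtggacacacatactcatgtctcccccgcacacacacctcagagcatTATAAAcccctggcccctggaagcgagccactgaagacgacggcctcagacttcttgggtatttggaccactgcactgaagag
Pmch, chr10:88090822-88091121, plus strand: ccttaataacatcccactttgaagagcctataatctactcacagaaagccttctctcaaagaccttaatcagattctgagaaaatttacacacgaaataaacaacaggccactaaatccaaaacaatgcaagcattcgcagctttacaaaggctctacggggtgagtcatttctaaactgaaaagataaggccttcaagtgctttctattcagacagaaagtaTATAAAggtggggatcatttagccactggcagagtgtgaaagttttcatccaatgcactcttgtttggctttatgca
Neurod2, chr11:98329596-98329895, minus strand: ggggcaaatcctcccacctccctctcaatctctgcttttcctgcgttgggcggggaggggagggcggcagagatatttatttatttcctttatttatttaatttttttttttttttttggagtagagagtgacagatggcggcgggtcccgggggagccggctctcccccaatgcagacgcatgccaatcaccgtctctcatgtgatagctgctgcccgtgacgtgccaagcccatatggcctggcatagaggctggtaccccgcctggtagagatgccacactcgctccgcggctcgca
The Oxt promoter held 5 GGTCA half-sites and the promoters of Avp, Hcrt, Pmch and Neurod2 held 0. At least 1 was present in 40.5% of the 32851 promoters of the table. TATAAA lay 33 bases before the start of Hcrt and 27 bases before the start of Pmch, and 8.32% of all promoters held it. Of the 2 promoters of Slc30a3, a cortical gene described below, 1 held 1 GGTCA and 1 TATAAA and the other held 0 of each (sequences not shown). A match describes these letters and is not evidence of a bound factor.

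Before any test, 3 of the 11 arrays stood apart. The array labelled hypothalamus replicate 6 went against its label. Its Oxt ratio, for the oxytocin precursor, was 0.15, against 2.43 to 3.06 on the other 22 hypothalamus arrays of the series and -0.15 to 0.67 on the 21 rest-of-brain arrays. Its ratio for Avp, the vasopressin precursor gene, was 0.47, against 2.15 to 3.05 on the other hypothalamus arrays and 0.15 to 1.19 on the rest-of-brain arrays. Its values for Hcrt (0.34) and Pmch (0.55) also lay below all other hypothalamus arrays and within the range of the rest-of-brain arrays. Its Neurod2 ratio was 1.84, against 0.37 to 1.34 on the other hypothalamus arrays and 1.71 to 2.17 on the rest-of-brain arrays. For the 117 features that differed between tissues in ungratified ACTH mice, each array was set against the tissue means of the other gratified arrays. Replicate 6 was left out of the hypothalamus mean. It lay nearer the rest-of-brain mean for 89 of these features (76.1%), while hypothalamus replicates 1 to 5 did so for 21 to 48. Its label was kept, and the counts and the results that it changes are given as labelled and without it. Oxt, Avp, Hcrt, Pmch and Neurod2 are themselves the genes that set it apart, so their values without it are descriptions with no test. Several other tissue markers, such as Pomc, Gal and Mef2c, also lay at rest-of-brain levels on it. Leaving it out favours larger differences of such markers, so counts and adjusted p without it are not independent support. Not all genes on replicate 6 went that way: Ramp3, Nptx1, Gas7 and Gpr22 lay with the other hypothalamus arrays. Its median of 23 oligodendrocyte and myelin genes was 1.78, against 1.255 to 1.59 on replicates 1 to 5 and 1.18 to 1.82 in rest of brain. Of these 23 genes 15, and of 14 choroid plexus genes 9, lay above all 5 other hypothalamus arrays, with 0 below.

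Rest of brain replicate 3 held low cortical and striatal and high cerebellar, hindbrain, myelin and oxidative phosphorylation signal. The median of 14 cerebellum markers was 1.52 on it and 0.55 to 0.68 on the other 4 rest-of-brain arrays, and 12 of the 14 were above all 4. Pcp2, a Purkinje cell gene, was 2.66 on it and 0.40 to 1.21 on the others, and Cbln1, the cerebellin precursor gene of granule cells, was 2.31 and 0.60 to 0.98. The median of 31 cortex and hippocampus markers was 0.39 on it and 0.82 to 1.00 on the others, with 22 markers below all 4. Of the 17 striatum markers 15 lay below, and of the 23 oligodendrocyte and myelin genes 18 lay above, the other 4. The median of 43 oxidative phosphorylation genes was -0.20 on it and -0.49 to -0.39 on the others. Of the 43, 35 lay above all 4 and 1 below. Of 12 meninges and fibroblast genes, 8 lay above all 4 and 1 below. It lay nearer the rest-of-brain mean for 59 of the 117 features, and the other 4 rest-of-brain arrays did so for 94 to 102.

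Hypothalamus replicate 4 differed from its group in overall pattern. Oxt, Avp, Hcrt and Pmch stayed high on it, but 13 of the 27 neuropeptide genes lay below all 5 other hypothalamus arrays. Its median over those 27 genes was 0.83, against 1.29 to 1.51 on hypothalamus replicates 1, 2, 3 and 5, 0.71 on replicate 6 and 0.61 to 0.90 in rest of brain. Low values were not particular to peptide genes. Below all 5 others lay 29 of 37 potassium channel, 17 of 23 myelin and 16 of 24 receptor genes, with 1, 0 and 0 above. The SD of its values was 0.67, against 0.74 to 0.75 on the other hypothalamus arrays. Its mean correlation with the other hypothalamus arrays over all features was 0.77, and that of the others was 0.90 to 0.92. The median of 43 oxidative phosphorylation genes was 0.78 on it and -0.44 to -0.20 on the other 5, and 41 of the 43 lay above all 5. The share of its values that were tied with another feature of the array, as a lower limit set for weak spots would leave them, was 31.1%, against 21.6 to 26.7% on the other hypothalamus arrays and 22.4 to 27.1% on the rest-of-brain arrays. The part of these 3 arrays' own composition or RNA in the results was not tested beyond leaving them out.

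**Figure D1:**
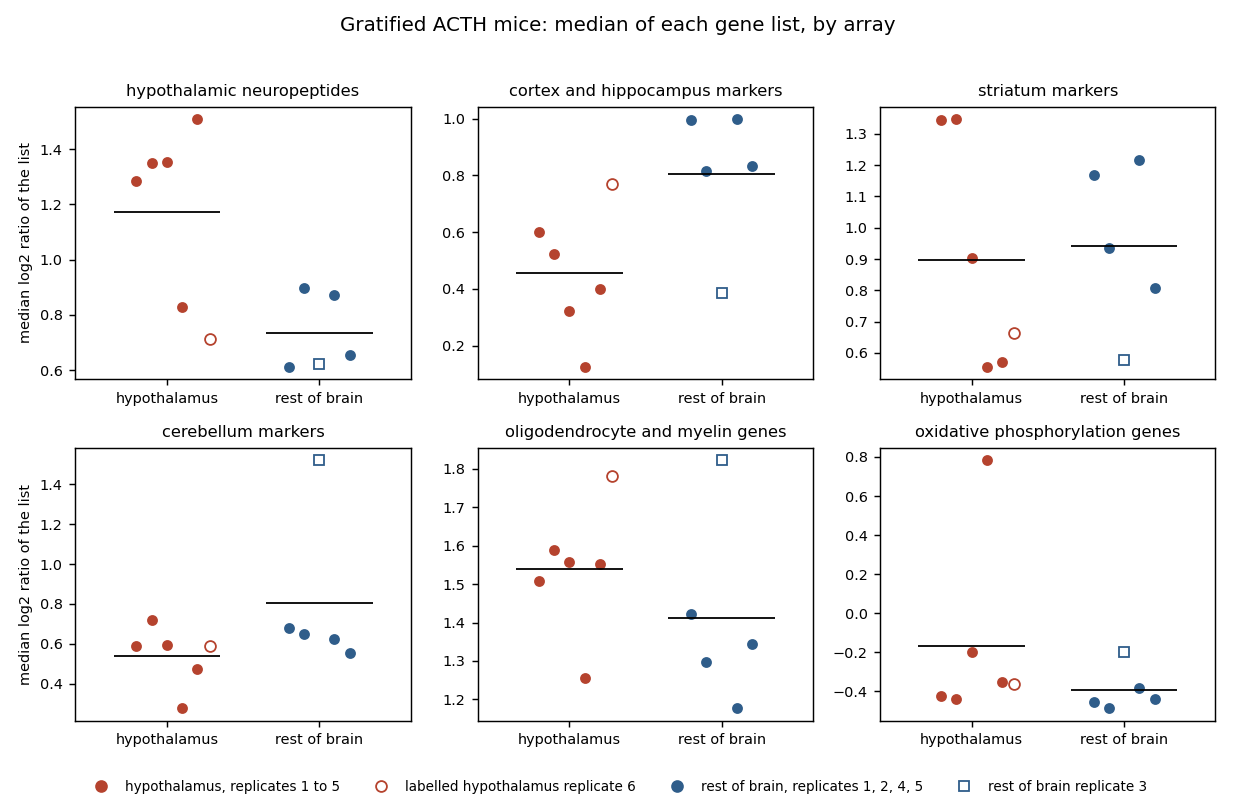
Median log2 ratio to reference RNA of 6 gene lists on each of the 11 arrays of gratified ACTH mice, hypothalamus left and rest of brain right, with lines at group means over all arrays. The open circle is the array labelled hypothalamus replicate 6, and the open square is rest of brain replicate 3, whose cerebellum median of 1.52 lies above the 0.55 to 0.68 of its group. Hypothalamus replicate 4 is the array with an oxidative phosphorylation median of 0.78.

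As labelled, 53 of 9554 features (0.555%) differed between the tissues, 35 higher in hypothalamus (0.366%) and 18 lower (0.188%), in a limma fit of all 44 arrays with Benjamini-Hochberg adjusted p under 0.05. Without replicate 6, 152 features did (1.59%), 84 higher (0.879%) and 68 lower (0.712%), and they included 52 of the 53. Unadjusted p was under 0.05 for 1180 features (12.4%) as labelled and 1502 (15.7%) without replicate 6. The group ranges did not overlap for 75 features (0.785%) as labelled and 198 (2.07%) without replicate 6. With all array medians set to 0, 24 were higher and 23 lower as labelled, against 35 and 18 on the values as deposited. Without replicate 6 that setting gave 59 higher and 88 lower, against 84 and 68, so the direction with more features depended on it. The count of 53 rested on single arrays in both directions: it was 168 without rest of brain replicate 3, and 22, 30, 26 and 27 without rest of brain replicates 1, 2, 4 and 5. It was 27, 29 and 24 without hypothalamus replicates 3, 4 and 5. A fit of the 2 compared groups alone called 2 features, 2 higher and 0 lower, so the calls rest on a spread pooled over all groups of the series. Without both replicate 6 and rest of brain replicate 3, 339 features differed, 165 higher and 174 lower, among them 147 of the 152. Without hypothalamus replicates 4 and 6, 80 differed, among them 68 of the 152. In every fit that left out 1 of the 11 arrays, 17 features were called, and these were Oxt, Avp, Hcrt, Pmch, Pomc, Cited1, Rgs16, Ramp3, Pcbd1 and Zfhx3 among the higher and Neurod2, Slc30a3, Arc, Cabp1, Nptx1, Gas7 and Gpr22 among the lower. Only the labels make the replicates separate samples, so the p-values reflect the spread among these arrays, which may be technical.

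The genes of the magnocellular and lateral hypothalamic peptides were the most different. Oxt had log2 ratios of 2.55, 2.67, 2.78, 2.43 and 3.02 on hypothalamus replicates 1 to 5 and 0.15 on replicate 6, against 0.19, 0.44, 0.41, 0.67 and 0.30 on rest of brain replicates 1 to 5. The first 5 hypothalamus arrays stood far above all rest-of-brain arrays, and replicate 6 lay below them. Oxt was higher by 1.86 ± 0.24 (SE) as labelled, a 3.64-fold difference (limma adjusted p = 9.79e-06), and by 2.29 ± 0.10, or 4.87-fold, without replicate 6, which Oxt itself set apart. In bulk tissue, more cells of a type and more RNA per cell cannot be told apart.

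Avp had ratios of 2.53, 2.15, 2.57, 2.22 and 2.92 on hypothalamus replicates 1 to 5 and 0.47 on replicate 6, against 0.41, 0.68, 0.40, 0.64 and 0.36 in rest of brain. Hcrt, which encodes the wake-promoting hypocretin peptides, had 2.12, 2.23, 2.35, 2.08 and 2.66 and then 0.34 on replicate 6, against 0.44, 0.41, 0.31, 0.41 and 0.24 in rest of brain. Pmch, which encodes melanin-concentrating hormone, had 2.43, 2.32, 2.27, 1.86 and 2.17 and then 0.55 on replicate 6, against 0.46, 0.57, 0.56, 0.47 and 0.52 in rest of brain. For all 3 genes replicates 1 to 5 did not overlap with rest of brain and replicate 6 lay inside its range. They were higher as labelled (limma adjusted p = 9.79e-06, 9.79e-06 and 4.23e-05 for Avp, Hcrt and Pmch). No size is given, because at least 4 of the 5 rest-of-brain values were tied with other features of the array and may lie at a floor.

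**Figure D2:**
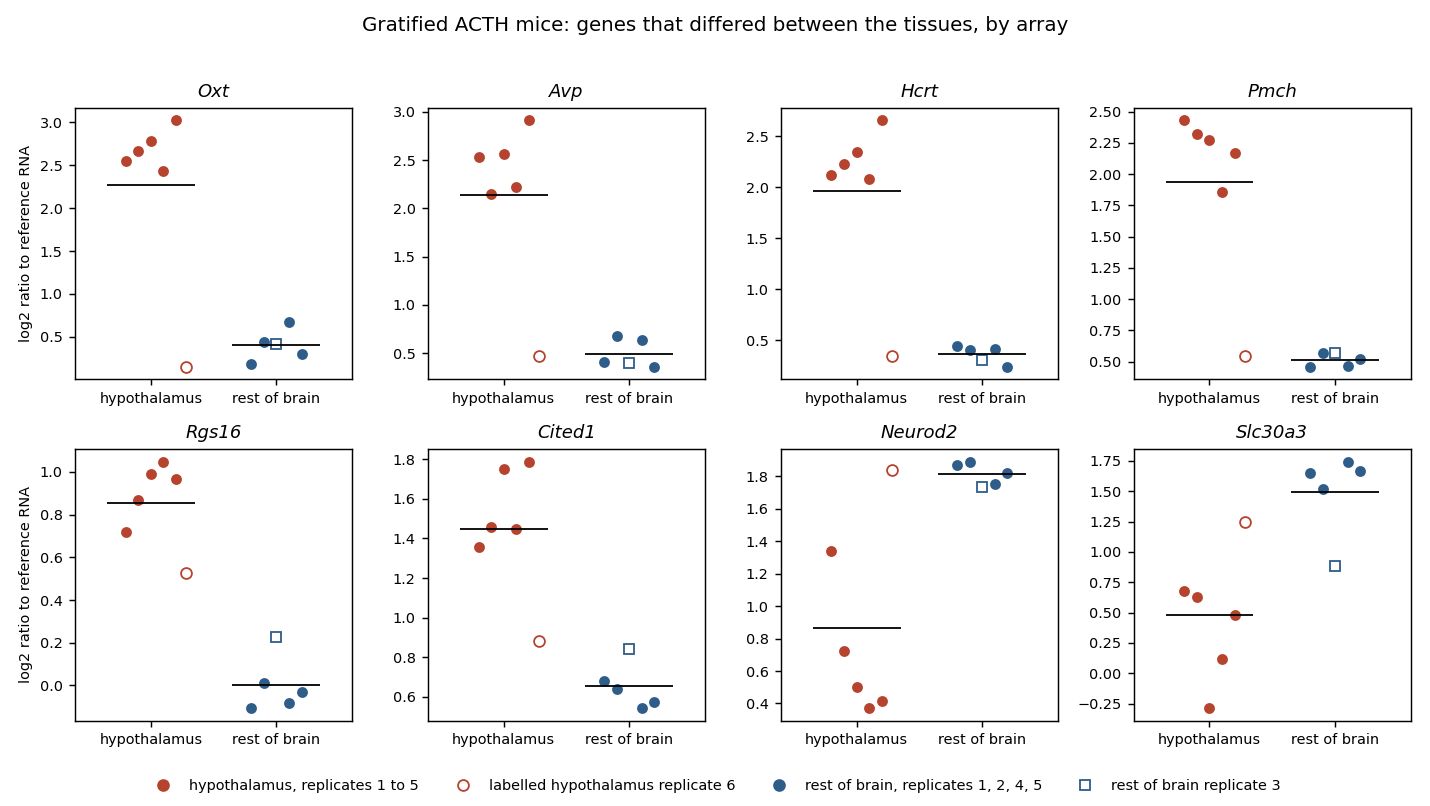
Log2 ratio to reference RNA of 8 genes on each array of gratified ACTH mice, hypothalamus left and rest of brain right, with lines at group means over all arrays. Hypothalamus replicates 1 to 5 (filled) lie between 2.43 and 3.02 for Oxt, while the array labelled replicate 6 (open circle) lies at 0.15, just below the rest-of-brain arrays (0.19 to 0.67).

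The arcuate peptide genes were higher by less. Pomc, which encodes the precursor of ACTH, melanocortins and beta-endorphin, had 1.07, 1.16, 1.17, 0.75 and 1.57 on hypothalamus replicates 1 to 5 and 0.50 on replicate 6, against 0.43, 0.50, 0.53, 0.58 and 0.38 in rest of brain. Replicates 1 to 5 lay above all rest-of-brain arrays and replicate 6 among them. Pomc was higher by 0.55 ± 0.11 as labelled (limma adjusted p = 0.00652) and by 0.66 ± 0.10 without replicate 6 (limma adjusted p = 4.06e-05). Pomc is also the product of pituitary corticotrophs, and of 8 measured pituitary genes it was the only one called as labelled; Dlk1, a growth regulator gene, joined it without replicate 6 (0.37 ± 0.08, limma adjusted p = 0.00472). Agrp, the appetite-stimulating antagonist of melanocortin receptors, had 1.23, 1.15, 1.35, 0.91 and 1.69 and then 0.35 on replicate 6, against 0.38 to 0.53 in rest of brain, where all 5 values were tied. Agrp was higher (limma adjusted p = 0.00925 as labelled, 1.51e-05 without replicate 6), but the call was lost without hypothalamus replicate 5 (limma adjusted p = 0.0502). Tac2, the neurokinin B gene, had 1.39, 1.59, 1.61, 1.41, 1.76 and 1.23 on the 6 hypothalamus arrays, against 1.15, 0.99, 0.82, 1.09 and 1.12 in rest of brain. All 6 hypothalamus arrays lay above it, and Tac2 was higher by 0.46 ± 0.11 as labelled (limma adjusted p = 0.0373) and 0.52 ± 0.11 without replicate 6 (0.00941), although its call was kept only in the fits without hypothalamus replicate 1 or 6 among the 11 that left out 1 array.

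Gal, the galanin gene, did not pass as labelled, with 1.04 to 1.81 on replicates 1 to 5, 0.37 on replicate 6 and 0.36 to 0.89 in rest of brain. Its difference of 0.82 ± 0.15 without replicate 6 is given with no test, since that array stood apart on Gal itself. As labelled its difference was 0.64 ± 0.17 (limma adjusted p = 0.063). Of the 27 measured hypothalamic neuropeptide genes, 7 were higher and 0 lower as labelled, against 0.366% and 0.188% of all features. Without replicate 6, 8 were higher and 1 lower, against 0.879% and 0.712% of all features. The lower one was Cck, the cholecystokinin gene, which many cortical neurons also express (-0.38 ± 0.10, limma adjusted p = 0.0456). The list's median difference was 0.05 as labelled and 0.06 without replicate 6, against medians over all features of -0.0035 and -0.0064.

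Other peptide genes made both in the hypothalamus and elsewhere did not pass in either fit. Cartpt, which encodes the feeding-related peptide CART, had 1.37, 1.70, 2.41, 1.22, 2.51 and 1.62 in hypothalamus, against 1.15, 1.30, 1.98, 1.68 and 1.41 in rest of brain, and the groups overlapped (0.30 ± 0.17, limma adjusted p = 0.453). Trh, the thyrotropin-releasing hormone gene, ranged from 0.39 to 1.40 in hypothalamus and from 0.55 to 0.93 in rest of brain. Ghrh, the growth hormone-releasing hormone gene, ranged from 0.02 to 0.72 and from 0.37 to 0.56. Npy, the neuropeptide Y gene, differed by -0.02 ± 0.18 and Sst, the somatostatin gene, by -0.18 ± 0.15 (limma adjusted p = 0.98 and 0.631). Vip, the gene of vasoactive intestinal peptide, had 0.57 to 0.89 on hypothalamus replicates 1 to 5 and 1.68 on replicate 6, against 0.77 to 1.69 in rest of brain, and its difference of -0.57 ± 0.18 without replicate 6 did not pass (limma adjusted p = 0.0953).

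Among the genes with the largest differences outside the peptides, Cited1, which encodes a transcriptional coactivator, had 1.36, 1.46, 1.75, 1.45, 1.79 and 0.88 in hypothalamus, against 0.68, 0.64, 0.84, 0.54 and 0.58 in rest of brain. The groups did not overlap, with replicate 6 the lowest hypothalamus array. Cited1 was higher by 0.79 ± 0.12 (limma adjusted p = 6.18e-05) as labelled and by 0.91 ± 0.10 (2.37e-07) without replicate 6. Rgs16, a regulator of G protein signalling, had 0.72, 0.87, 0.99, 1.05, 0.96 and 0.53, against -0.11, 0.01, 0.23, -0.08 and -0.03 in rest of brain. These groups did not overlap either, and Rgs16 was higher by 0.85 ± 0.13 (limma adjusted p = 8.88e-05) and by 0.91 ± 0.13 without replicate 6 (1.51e-05). Ramp3, a partner protein of the calcitonin receptor family, had 0.87, 1.11, 1.48, 1.31, 1.16 and 1.09 in hypothalamus, against 0.33, 0.40, 0.11, 0.37 and 0.54 in rest of brain. On Ramp3 replicate 6 lay with the other hypothalamus arrays, and the difference of 0.82 ± 0.15 (limma adjusted p = 0.00171) was 0.84 ± 0.16 without it.

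Osmr, the oncostatin M receptor gene, had -0.95, -0.58, -0.38, -0.88, -0.05 and -1.30 in hypothalamus, against -1.44, -1.34, -1.32, -1.43 and -1.35 in rest of brain. The rest-of-brain values lay close together and all hypothalamus arrays lay above them, replicate 6 by the least. Osmr was higher by 0.69 ± 0.15 as labelled (limma adjusted p = 0.0146) and 0.81 ± 0.14 without replicate 6 (0.000401), with the call lost without hypothalamus replicate 3 or 5 or rest of brain replicate 1. Rarres2, the chemerin gene of ependyma and tanycytes, had 0.64 to 1.11 in hypothalamus and 0.10 to 0.39 in rest of brain, and was higher by 0.54 ± 0.12 (limma adjusted p = 0.0162) and 0.57 ± 0.12 without replicate 6. It was the 1 of 11 measured ependyma and tanycyte genes to pass, and its call was lost without rest of brain replicate 1, 4 or 5 or hypothalamus replicate 4.

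Among the genes of monoamine neurons, the histamine enzyme was higher. Hdc, histidine decarboxylase, which makes histamine in tuberomammillary neurons, had 1.00, 0.99, 1.30, 0.76, 1.41 and 0.81, against 0.56, 0.63, 0.67, 0.55 and 0.37 in rest of brain. All 6 hypothalamus arrays lay above, and Hdc was higher by 0.49 ± 0.11 as labelled (limma adjusted p = 0.0162) and 0.53 ± 0.11 without replicate 6 (0.00474), with the call lost without rest of brain replicate 1 or 5 or hypothalamus replicate 3 or 5. Without replicate 6, Ddc, which encodes aromatic amino acid decarboxylase, and Pts, of tetrahydrobiopterin synthesis, also passed (0.64 ± 0.14 and 0.35 ± 0.10; limma adjusted p = 0.0103 and 0.048). Pcbd1, which encodes the enzyme that regenerates that cofactor, was named after its values were seen: it had 0.00, 0.02, 0.53, 0.26, 0.51 and -0.49 in hypothalamus, against -0.86, -0.74, -0.36, -0.56 and -0.58 in rest of brain. Replicate 6 lay among the rest-of-brain arrays, and Pcbd1 was higher by 0.76 ± 0.14 (limma adjusted p = 0.00261) and by 0.88 ± 0.13 without it (3.12e-05). Of 17 measured cholinergic and monoamine neuron genes, 1 was higher as labelled and 3 without replicate 6, against 0.366% and 0.879% of all features.

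Hypothalamic transcription factors and regional genes numbered 20, of which 0 passed as labelled and 2 were higher without replicate 6 (0.879% of all features). The list median was 0.08 in both fits. Nkx2-1, the homeobox gene of the ventral hypothalamus, had 0.93, 1.01, 0.93, 0.53 and 1.02 on replicates 1 to 5 and 0.46 on replicate 6, against 0.52, 0.57, 0.41, 0.58 and 0.45, where all 5 values were tied (limma adjusted p = 0.0931 as labelled, 0.00816 without replicate 6). Hap1, which encodes huntingtin-associated protein 1, had 2.06, 2.07, 2.27, 2.29 and 2.40 and then 1.62 in hypothalamus, against 1.02, 1.65, 1.93, 1.67 and 1.74 in rest of brain (0.62 ± 0.15 without replicate 6, limma adjusted p = 0.0216). For both, replicate 6 lay within the range of the rest-of-brain arrays, as did replicate 4 for Nkx2-1. Their passing without replicate 6 is thus no independent support. Zfhx3, a homeobox gene of the suprachiasmatic nucleus and other regions named after its values were seen, was higher in both fits (0.56 ± 0.11 and 0.64 ± 0.11; limma adjusted p = 0.00586 and 0.000283).

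Of 13 measured thalamus and habenula markers, 3 were higher as labelled and 4 without replicate 6, against 0.366% and 0.879% of all features. None was lower, the list medians were 0.26 and 0.27, and 3 differences lay below 0 in both fits. Prkcd, the protein kinase C delta gene of thalamic relay neurons, had -0.06, 0.12, 0.34, 0.84, -0.02 and -0.43 in hypothalamus, against -1.18, -0.75, -0.86, -0.83 and -0.64 in rest of brain. The groups did not overlap, and hypothalamus replicate 4 was the highest. Prkcd was higher by 0.98 ± 0.23 (limma adjusted p = 0.0307) and by 1.09 ± 0.23 without replicate 6 (0.00669), with the call lost without rest of brain replicate 1, 2 or 4 or hypothalamus replicate 3, 4 or 5. Adarb1, which encodes an RNA-editing deaminase, had 0.89 to 1.56 in hypothalamus and 0.56 to 0.99 in rest of brain (0.50 ± 0.12, limma adjusted p = 0.0398), so that the groups overlapped. Its call was lost in 7 of the 11 fits that left out 1 array, those without rest of brain replicate 1, 2, 4 or 5 or hypothalamus replicate 3, 4 or 5. Tac2, described above, is the third, and Gbx2, a homeobox gene of the thalamus, joined without replicate 6 (limma adjusted p = 0.0223; 4 of 5 rest-of-brain values tied). Tcf7l2, a transcription factor gene of the thalamus, has several features; the one with the widest spread had 0.38 to 0.84 in hypothalamus and -0.32 to 0.24 in rest of brain, with 4 of 5 values tied there, but did not pass (limma adjusted p = 0.133).

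Markers of cortex and hippocampus were lower. Of 31 measured, 4 were lower and 0 higher as labelled, against 0.188% of all features lower. Without replicate 6, 10 were lower and 0 higher, against 0.712% of all features lower. The list medians were -0.47 and -0.51, the farthest from 0 of the 29 lists. Neurod2 had 1.34, 0.73, 0.50, 0.37 and 0.42 on hypothalamus replicates 1 to 5 and 1.84 on replicate 6, against 1.87, 1.89, 1.74, 1.75 and 1.82 in rest of brain. The rest-of-brain arrays lay close together, hypothalamus replicates 1 to 5 lay below them and replicate 6 lay among them. Neurod2 was lower (-0.95 ± 0.16, limma adjusted p = 0.000421; -1.14 ± 0.12 without replicate 6, as a description), a 1.93-fold and 2.21-fold difference. Cabp1, a neuronal calcium-binding protein gene, had 1.38, 1.51, 1.32, 0.96, 1.41 and 2.04 in hypothalamus, against 2.10, 1.94, 1.97, 2.16 and 2.13 in rest of brain, and was lower by the same pattern (-0.62 ± 0.10, limma adjusted p = 0.000584; -0.75 ± 0.09 and 2.93e-07 without replicate 6). Nptx1, the neuronal pentraxin that gathers AMPA receptors, had 1.24 to 1.80 in hypothalamus and 1.41 on replicate 6, against 2.12, 2.15, 1.98, 2.01 and 2.16 in rest of brain. For Nptx1 replicate 6 lay with the hypothalamus arrays and the groups did not overlap (-0.56 ± 0.11, limma adjusted p = 0.00412). Its receptor gene Nptxr had -1.31 to -0.73 in hypothalamus, against -0.35, -0.32, -0.86, -0.34 and -0.35 in rest of brain, where replicate 3 lay among the hypothalamus arrays (-0.47 ± 0.12, limma adjusted p = 0.0467). The Nptxr call was lost without the same 7 arrays as that of Adarb1.

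Several cortical markers were decided by the arrays that stood apart. Mef2c, a transcription factor gene of cortical neurons, had -0.28, -0.26, -0.66, -0.21 and -0.70 on hypothalamus replicates 1 to 5 and 1.04 on replicate 6, against 0.94, 0.55, -0.58, 1.07 and 0.94 in rest of brain. Replicate 6 was high with most of the rest of brain, and rest of brain replicate 3 was low with the hypothalamus. The Mef2c difference was -0.76 ± 0.24 as labelled (limma adjusted p = 0.137) and -1.005 ± 0.21 without replicate 6. It was -1.05 ± 0.22 without rest of brain replicate 3 and -1.29 ± 0.17 without both. The values without an array are given with no test. Replicate 6 stood apart on Mef2c itself, and cortex markers set rest of brain replicate 3 apart. Camk2a, the gene of the calcium/calmodulin-dependent kinase of excitatory synapses, had 2.02, 1.67, 1.39, 1.11, 1.25 and 2.27 in hypothalamus, against 2.38, 2.29, 1.53, 2.37 and 2.34 in rest of brain, with the same arrays out of place. The Camk2a difference was -0.57 ± 0.16 as labelled (limma adjusted p = 0.112) and -0.70 ± 0.16 without replicate 6, the latter given with no test. Fezf2, Tbr1 and Neurod6, transcription factor genes of projection neurons, and Nrn1, the neuritin gene, also did not pass as labelled. Without replicate 6 the difference was -0.70 for Fezf2 and -0.62 for Nrn1. Tbr1 and Neurod6 were lower too, but tied on most of those hypothalamus arrays. These are descriptions as well, since replicate 6 lay above all 5 other hypothalamus arrays on 18 of the 31 cortex and hippocampus markers. Without both arrays the list median was -0.63, which is a description, since low values of this list set rest of brain replicate 3 apart.

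Slc30a3, which encodes the zinc transporter of synaptic vesicles in cortical and hippocampal neurons, was named after its values were seen. It had 0.68, 0.63, -0.29, 0.11, 0.48 and 1.25 in hypothalamus, against 1.65, 1.52, 0.89, 1.74 and 1.67 in rest of brain. Hypothalamus replicate 6 lay above rest of brain replicate 3, so the groups overlapped as labelled and not without replicate 6. Slc30a3 was lower by 1.01 ± 0.17 on the log2 scale (2.02-fold, limma adjusted p = 0.00067) and by 1.17 ± 0.16 without replicate 6 (2.25-fold, 9.04e-06).

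Genes tied to synaptic activity and calcium signals were lower in smaller number. Arc, the immediate early gene of activity-dependent synaptic change, had 0.34, 0.82, 0.48, 0.35, 0.37 and 0.64 in hypothalamus, against 1.495, 1.55, 0.63, 1.42 and 1.55 in rest of brain. Rest of brain replicate 3 lay among the hypothalamus arrays and the other 4 lay above all of them. Arc was lower (-0.83 ± 0.17, limma adjusted p = 0.00916; -0.86 ± 0.18 without replicate 6 and -1.03 ± 0.17 without both arrays). Of 32 measured immediate early genes Arc was the 1 to pass as labelled and without replicate 6. Over all features 0.188% and 0.712% were lower in these fits, which also applies to the lists of the next paragraph. Fos had -1.16 to -0.86 in hypothalamus and -1.09 to -0.88 in rest of brain (-0.06 ± 0.09, limma adjusted p = 0.803), and Ier2 differed by 0.04 ± 0.10. Egr1 did not pass as labelled or without replicate 6. Without both arrays its difference was -0.45 ± 0.12, given with no test because rest of brain replicate 3 stood apart on Egr1 itself.

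Dlgap1, a scaffold gene of the postsynaptic density, had 1.67, 1.47, 1.503, 1.21, 1.38 and 1.90 in hypothalamus, against 1.95, 1.98, 1.71, 2.08 and 2.04 in rest of brain. Replicate 6 lay above rest of brain replicate 3 and the others lay below all rest-of-brain arrays. Dlgap1 was lower (-0.43 ± 0.09, limma adjusted p = 0.00925; -0.51 ± 0.08 and 0.00025 without replicate 6), and its call was lost without rest of brain replicate 4 (limma adjusted p = 0.0526). It was the 1 of 26 glutamate receptor and postsynaptic density genes to pass as labelled, with 2 without replicate 6. Camk4, a nuclear calcium/calmodulin-dependent kinase gene, was the 1 of 20 calcium-binding and calcium-dependent kinase genes to pass as labelled (-0.33 ± 0.08, limma adjusted p = 0.0326), with 3 lower without replicate 6 and a list median of -0.26. Its values were 0.25, 0.32, -0.08, -0.14, -0.12 and 0.14 in hypothalamus, against 0.49, 0.41, 0.25, 0.48 and 0.35, and the groups overlapped. The Camk4 call was lost without the same 7 arrays as that of Adarb1. Without replicate 6, Camk2a and Camkk2, a kinase gene upstream of Camk4, were lower too (-0.52 ± 0.11 for Camkk2, limma adjusted p = 0.00527).

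Of the other lower genes, Gas7, a growth-arrest gene of neurons, had -0.33, -0.47, -0.47, -1.01, -0.73 and -0.47 in hypothalamus, against 0.10, -0.10, -0.15, 0.04 and -0.02 in rest of brain. Gpr22, an orphan G protein-coupled receptor gene, had 0.81, 0.99, 0.85, 0.59, 0.52 and 0.52 in hypothalamus, against 1.07, 1.43, 1.15, 1.33 and 1.32 in rest of brain. Neither overlapped between tissues, and replicate 6 lay with the hypothalamus arrays for both. Gas7 was lower by 0.55 ± 0.08 (limma adjusted p = 8.88e-05) and Gpr22 by 0.55 ± 0.11 (0.00566). Among the other higher genes were Spata5 (0.31 ± 0.08, limma adjusted p = 0.0445) and Cd274, which encodes the immune checkpoint ligand PD-L1 (0.26 ± 0.06, 0.0467). The Spata5 call was lost without the same 7 arrays as that of Adarb1, and the Cd274 call was kept only without rest of brain replicate 3 or hypothalamus replicate 2. Cd274 was the 1 of the 53 features not called without replicate 6 (0.0593).

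Most cell type and pathway lists held few or no called genes. Over the 29 lists, 18 of 525 distinct measured genes were called as labelled and 37 without replicate 6, against 0.555% and 1.59% of all features. The lists took the feature of largest SD for each gene and were chosen with earlier results of these data known. Their larger share of calls is therefore not a test of the lists. In neither fit did any gene pass in the lists for GABA neurons (15 measured), striatum (17), cerebellum (14), midbrain and hindbrain (12), potassium channels (37), oligodendrocytes and myelin (23), microglia and macrophages (15), endothelium and pericytes (15), choroid plexus (14), meninges and fibroblasts (12), blood (5), glucocorticoid-responsive genes (15), circadian clock (19), oxidative phosphorylation (43) and synaptic vesicles (25). Among 14 neuropeptide processing and granule genes and 24 receptor genes, 0 passed as labelled, and Chgb, the chromogranin B gene, and Cckbr, a cholecystokinin receptor gene, were lower without replicate 6 (-0.30 ± 0.08 and -0.58 ± 0.14; limma adjusted p = 0.0439 and 0.0247). Gad1 and Gad2, which encode the enzymes of GABA synthesis, differed by 0.03 ± 0.09 and 0.06 ± 0.15 (limma adjusted p = 0.912 and 0.879). Ppp1r1b, the DARPP-32 gene of striatal neurons, had 2.16 to 2.66 in hypothalamus and 2.35 to 2.62 in rest of brain. Ttr, the transthyretin gene of the choroid plexus, ranged from 1.26 to 3.04 in hypothalamus and from 1.57 to 3.07 in rest of brain, a spread within each tissue larger than its difference of -0.46 ± 0.43.

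Of 24 astrocyte genes 0 passed as labelled and Sparc, an extracellular matrix gene, passed without replicate 6 (0.74 ± 0.18, limma adjusted p = 0.0223), with 0.09 on rest of brain replicate 3 against -1.22 to -1.06 on the other 4 rest-of-brain arrays. Glul, the glutamine synthetase gene of astrocytes, differed by 0.02 ± 0.17, and the myelin gene Cldn11 by 0.05 ± 0.17. Sgk1, the corticosteroid-induced kinase gene that raises sodium uptake in the kidney, had 0.03, 0.15, 0.10, 0.57, 0.06 and -0.27 in hypothalamus, against -0.36, -0.10, -0.03, -0.54 and -0.89 in rest of brain. The groups overlapped only through replicate 6. The difference of 0.49 ± 0.16 did not pass (limma adjusted p = 0.16), nor did 0.57 ± 0.17 without that array (0.0681). Sgk1 passed only without both replicate 6 and rest of brain replicate 3, in a fit chosen after seeing the data (0.66 ± 0.17, limma adjusted p = 0.0235).

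**Figure D3:**
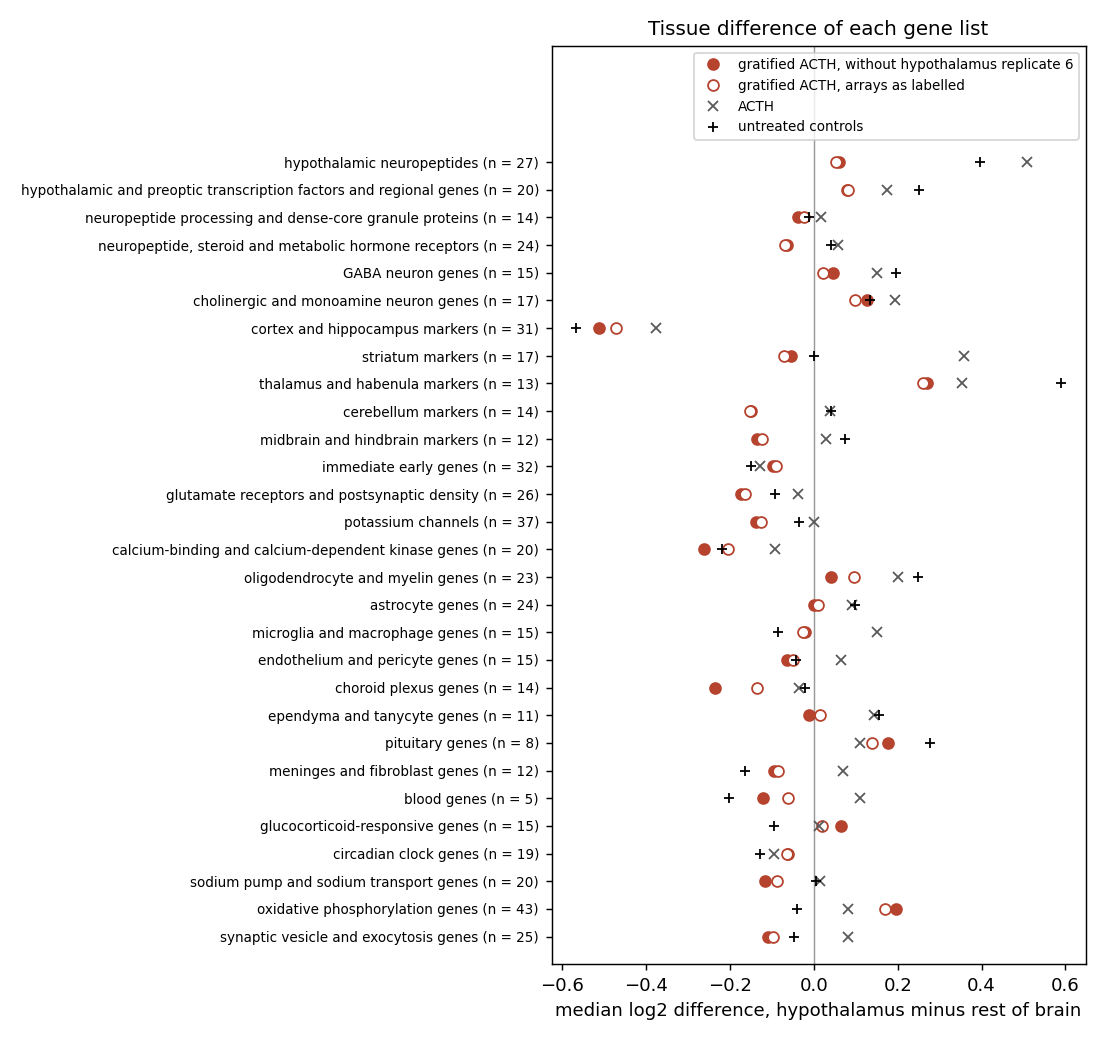
Median log2 difference, hypothalamus minus rest of brain, of the measured genes of 29 lists (n in brackets) in gratified ACTH mice without the array labelled replicate 6 (filled) and as labelled (open), in ACTH mice (crosses) and in untreated controls (plus signs). The cortex and hippocampus list lies farthest below 0 in gratified ACTH mice, at -0.51 without replicate 6 and -0.47 as labelled.

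The same tissue difference was called for 117 features in ungratified ACTH mice (1.22%), 59 higher (0.618%) and 58 lower (0.607%), and for 269 in untreated controls (2.82%), 102 higher (1.07%) and 167 lower (1.75%). In the controls, tissue cannot be told apart from the kind of description number, which bears on every comparison with them. Of the 53 features called in gratified ACTH mice, 49 had the same direction in ACTH mice and 30 were called there too, which is 56.6% of the gratified calls and 25.6% of the ACTH calls. Against controls, 51 had the same direction and 30 were called in both (56.6% and 11.2%). Without replicate 6, 54 of 152 were also called in ACTH mice (35.5% and 46.2%) and 69 in controls (45.4% and 25.7%). Oxt differed by 2.32 ± 0.27 in ACTH mice and 2.66 ± 0.28 in controls, and Neurod2 by -0.84 ± 0.17 and -1.22 ± 0.18. Osmr differed by 0.07 ± 0.16 in ACTH mice and -0.08 ± 0.17 in controls, but the test of that change did not pass (limma adjusted p = 0.502 against ACTH and 0.365 against controls).

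**Figure D4:**
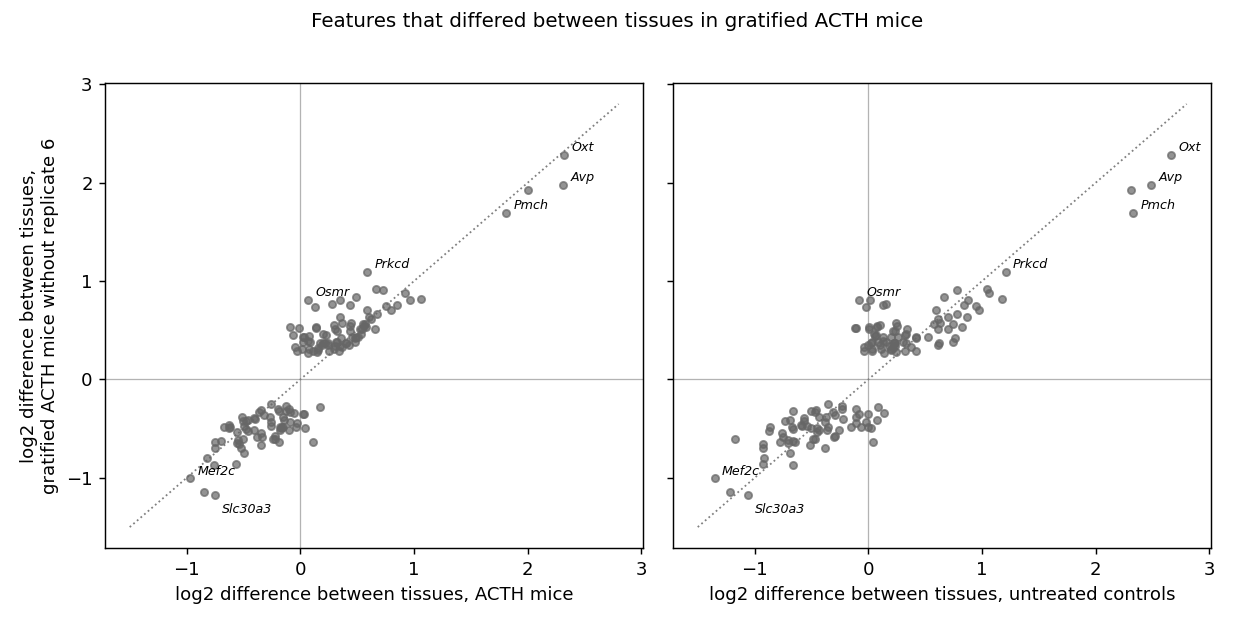
Log2 tissue difference of the 152 features called in gratified ACTH mice without replicate 6 (vertical axis) against that in ACTH mice (left) and untreated controls (right), 1 point a feature, with a dotted line of equality. Of the 152, 142 share their direction with ACTH mice and 139 with controls, and Osmr is among those near 0 on the horizontal axis.

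Whether the tissue difference itself changed with gratification was tested as an interaction. The tissue difference in gratified minus that in ungratified ACTH mice passed for 3 features (0.0314%), with 722 (7.56%) at unadjusted p under 0.05. Adamts1, a secreted metalloprotease gene, had -1.53, -0.67, -1.45, -0.05, -0.20 and -0.53 in gratified hypothalamus, against -0.64, -1.51, -1.40, -1.56 and -1.56 in gratified rest of brain. In ACTH mice it had -1.51 to -0.55 in hypothalamus and -0.37, -0.01, -0.02 and -0.17 in rest of brain. The 4 ACTH rest-of-brain arrays stood above all rest-of-brain arrays of gratified mice and controls. The difference of differences was 1.70 ± 0.28 (limma adjusted p = 0.0031), and 1.65 ± 0.28 without replicate 6 (0.00887).

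Ncaph, a condensin subunit gene, had -0.39 and -1.54 to -1.10 in gratified hypothalamus, against -1.53 to -1.40 in gratified rest of brain, and in ACTH mice -1.57 to -1.25 in hypothalamus and -1.17, -0.32, -0.19 and -0.92 in rest of brain (1.05 ± 0.20, limma adjusted p = 0.0213). Kif20a, a mitotic kinesin gene, had -1.40 to -1.05 in gratified hypothalamus, against -1.54 to -1.33 in gratified rest of brain, and -1.56 to -1.37 in ACTH hypothalamus, against -1.42 to -1.12 in ACTH rest of brain (0.52 ± 0.10, limma adjusted p = 0.0213). For both genes the highest rest-of-brain values of the ACTH treatments were those of ungratified mice, and for Ncaph 1 gratified hypothalamus array lay far above the other 5. Without replicate 6, 4 features passed (0.0419%), 3 higher (0.0314%) and 1 lower (0.0105%), with 760 (7.95%) at unadjusted p under 0.05. These were the same 3 genes and Caln1, the calneuron gene (-0.62 ± 0.13, limma adjusted p = 0.0429). Dusp6, the gene of a MAP kinase phosphatase, and Eif4e2, a cap-binding protein gene, had the next smallest p among features with a symbol (0.75 and -0.44 as labelled, limma adjusted p = 0.0596 and 0.134). The count ranged from 1 to 6 over 20 fits that each left out 1 array: it was 1 without rest of brain gratified replicate 1, 4 or 5 or hypothalamus ACTH replicate 2 or 4, 5 without rest of brain gratified replicate 2 and 6 without rest of brain ACTH replicate 1. In fits of the ACTH and gratified ACTH arrays alone it was 0, and with a replicate block it was 0. No gene of the 29 lists passed, and Oxt, Avp, Hcrt and Pmch did not pass (limma adjusted p = 0.823, 0.645, 0.819 and 0.806).

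**Figure D5:**
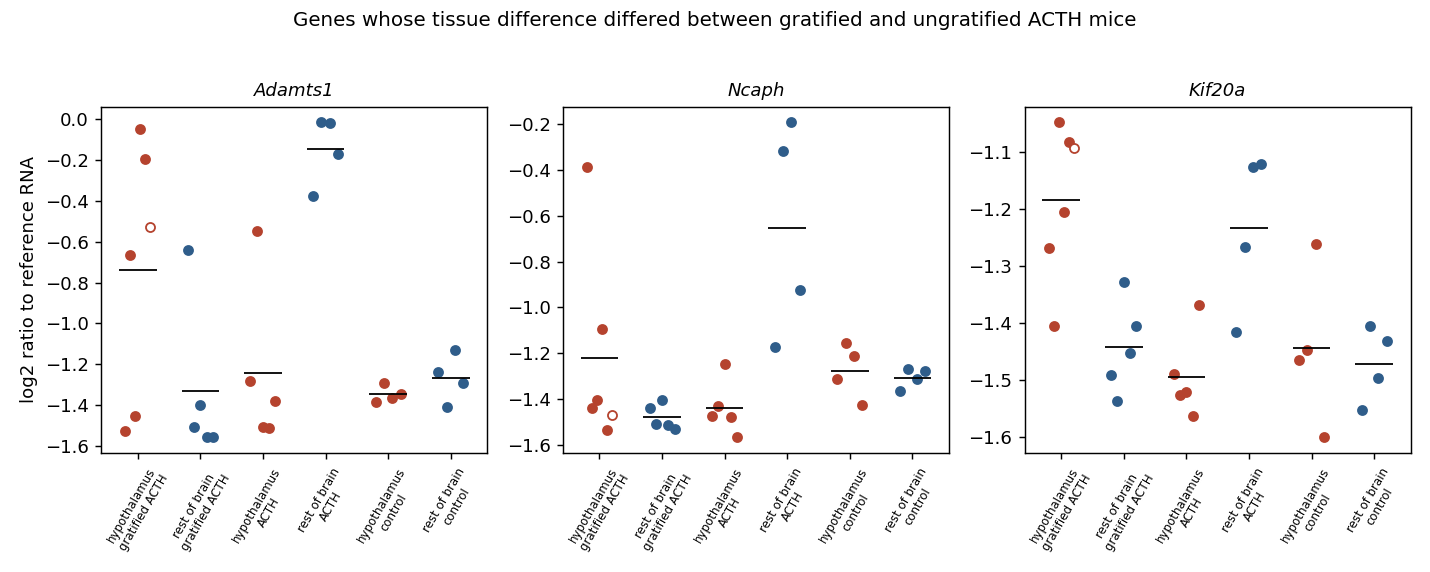
Log2 ratio to reference RNA of Adamts1, Ncaph and Kif20a on every array of gratified ACTH, ACTH and untreated control mice, with lines at group means and the array labelled hypothalamus replicate 6 open. For Adamts1 the 4 ACTH rest-of-brain arrays lie between -0.37 and -0.01.

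The tissue difference in gratified ACTH mice minus that in untreated controls passed for 0 features in limma (0.0%), as labelled and without replicate 6, with 990 (10.4%) and 1023 (10.7%) at unadjusted p under 0.05. Array weights gave 2, leaving out rest of brain control replicate 1 gave 8, and leaving out hypothalamus control replicate 4 gave 1. The smallest p belonged to Ghrh, which had 0.57, 0.63, 0.72, 0.02, 0.68 and 0.32 in gratified hypothalamus, against 0.56, 0.52, 0.46, 0.37 and 0.42 in gratified rest of brain. In controls Ghrh had 1.11, 1.25, 1.04 and 0.59 in hypothalamus, against 0.28, 0.04, -0.03 and 0.14 in rest of brain. The difference of differences did not pass (limma adjusted p = 0.116), and no size is given because 3 of the 5 gratified rest-of-brain values were tied. A second feature of Tcf7l2 had the next smallest adjusted p (0.237), and Ptger2, Igsf1, Ecel1 and Ascc2 had 0.317. The share of tied values was 21.6 to 31.1% on gratified hypothalamus and 22.4 to 27.1% on gratified rest-of-brain arrays, against 7.66 to 12.6% and 2.75 to 16.1% on the control arrays, and its part in these comparisons was not tested. The neuropeptide list's median tissue difference was 0.05 in gratified ACTH mice, 0.51 in ACTH mice and 0.40 in controls. The tissue difference was smaller than in ACTH mice for 24 of its 27 genes and smaller than in controls for 22, with list medians of these changes of -0.26 and -0.22, against -0.0193 and 0.0213 over all features. Without replicate 6 the medians were -0.18 and -0.16, and 0 genes of the list passed in either comparison. Other lists lay below 0 as well: against ACTH mice the median was -0.44 for striatum markers (15 of 17 below 0), -0.24 for GABA neuron genes (12 of 15) and -0.18 for cerebellum markers (13 of 14), and against controls it was -0.26 for cerebellum markers and -0.22 for GABA neuron genes.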

How the data were processed

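Each of the 44 arrays measured tissue RNA (Cy5) against a common reference RNA (Cy3). The deposited values are log2 ratios for 9554 features, and per the submitters' processing notes the authors used limma (version and settings: not given in the sources used here). Base 2 was assumed for the logarithm, since no label states it. Values lay between -2.65 and 3.17, array medians between -0.24 and -0.05, and 0 were missing. Signal and background of single spots were not used here. Values tied within an array were read as a floor for weak spots, and sizes are left out for features tied on over a 0.5 share of the arrays in either group. The number of arrays limits the precision, and all 44 columns belong to the samples.

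Feature names were matched to RefSeq mouse symbols: 8651 matched a symbol, 580 a single synonym, 29 several genes and 294 none. A gene list used 1 feature per gene, the one with the largest SD.

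All 44 arrays entered 1 limma fit of group means (limma 3.58.1, R 4.3.3; two-sided moderated test, Benjamini-Hochberg over all features, threshold 0.05). Interactions contrasted the tissue difference between treatments. Named genes were up to 15 features with the largest difference in each direction that had no overlap and few ties, and fewer met this rule. Up to 6 called genes per list, fixed marker genes, and up to 6 features per interaction were named too. List genes called without replicate 6 were also named, and some other genes after their values were seen. Members and lists were chosen with earlier results of these data known. On simulated data with 9554 features and the same groups, the fit of the gratified tissue difference found 82% of 100 features changed by 0.5 and 99% of 100 changed by 1 (log2), with 11 false calls. The simulated noise was independent, had the same spread in every group and held no array that stood apart. These figures check the fit and do not carry over to the real arrays. Results for 1 gene are not reported here. Alternatives were other normalizations, array weights, fewer groups, a replicate block, and fits without single arrays. Tables and plots used Python 3.11.15, pandas 2.3.3, numpy 2.4.6 and matplotlib 3.10.9.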

Additional observations from a re-analysis of the deposited data

Results flagged for a closer look

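In each tissue of gratified ACTH mice, the gap between the most extreme array and its nearest neighbour was divided by the range of the group and compared with Dixon's critical value, 0.625 for 6 arrays and 0.71 for 5. Of 126 groups of values checked, 21 exceeded it. A single group exceeds it by chance in about 1 in 20 cases. The groups checked shared the same arrays, and many were of genes named for their tissue difference. The 21 therefore cannot be set against that rate. In hypothalamus, the array labelled replicate 6 was the one apart for Oxt (0.792), Hcrt (0.749), Pmch (0.695), Avp (0.686), Mef2c (0.715) and Vip (0.711). Replicate 4 was apart for Rarres2 (0.636), and Ascc2 also had an array apart (0.633). In rest of brain, replicate 3 was apart for Nptxr (0.933), Camk2a (0.895), Egr1 (0.858), Arc (0.851) and Ppp1r1b (0.713). Replicate 1 was apart for Gad1 (0.844), Adamts1 (0.83) and Ttr (0.76), and replicate 5 for Trh (0.845). Over all features, hypothalamus replicate 4 was apart in its SD (0.955), in its mean correlation with its group (0.914) and in its median (0.682), and rest of brain replicate 5 was apart in its share of tied values (0.803).

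The tissue difference in gratified ACTH mice differed from that in ACTH mice for 3 genes in the limma interaction test, by 1.7 for Adamts1, 1.05 for Ncaph and 0.521 for Kif20a (log2).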

How the results depend on the processing

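No alternative reversed a called result. Of the named genes' values under alternatives, 1422 kept their side of the threshold, 71 passed where they had not and 147 no longer passed. Of the list medians 835 moved by less than the spread between replicates and 6 by more. The number of features that differed between tissues (53) was 131 with array weights, 19 in a fit of the 20 ACTH and gratified ACTH arrays and 2 in a fit of the compared groups. It lay between 22 and 168 when 1 array was left out. The number of list genes called (18) was 37 with array weights, 0 in the fit of the compared groups, and 11 to 42 when 1 array was left out. The interaction with ACTH mice (3) gave 5 with array weights, 5 without features tied on most arrays, 0 in fits of the 20 arrays or of the compared groups, and 1 to 6 when 1 array was left out. The interaction with controls (0) gave 2 with array weights and 0 to 8 when 1 array was left out.

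Fits chosen after seeing the data also left out arrays that stood apart. Without hypothalamus replicate 6, the number of features was 147 with array medians set to 0, 221 with array weights, 24 in the compared groups, 202 after quantile normalization and 146 with trend and robust settings, and the number of list genes was 39, 57, 10, 45 and 35. Array weights then gave 2 for the interaction with controls, and the interaction with ACTH mice gave 0 in the compared groups and 0 in the other 19 ACTH arrays. Without hypothalamus replicates 4 and 6 there were 80 features and 1 interaction with ACTH mice. Without replicate 6 and rest of brain replicate 3 there were 339 features, 69 list genes and 5 interactions with ACTH mice. The cause of these changes was not tested.

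Replicate numbers were not shown to mark a pairing: deviations of same-numbered gratified arrays correlated by 0.14, 0.20, 0.19, -0.07 and 0.12, and not every array correlated best with its own number. With a replicate block, 134 features, 38 list genes and 0 interactions with ACTH mice were called. That block leaves hypothalamus replicate 6, which has no partner, without weight in the tissue difference. The sample descriptions also number gratified arrays in neighbouring couples across tissues, with a meaning that is not given. Deviations within the 5 couples correlated by 0.14, 0.20, 0.19, -0.01 and 0.14, and a block of these couples, chosen after seeing the data, called 39 features, 15 list genes and 3 and 0 interactions.

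With the tied values read as a floor, differences of weakly expressed genes are limited. Spot intensities were not used here, so signal over background is unknown, and each group holds at most 6 arrays.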
